A study of Homo sapiens with 7 samples.

Results

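KIT, CD34, CD38, CD44, CD96, HAVCR2, EMCN, ITGA6 and ANGPT1 are genes for surface molecules, and for 1 secreted ligand (ANGPT1), by which leukaemic and normal blood stem and progenitor cells are recognised or held in their niche. The regions described here are those of the authors' 2 lists of changed open chromatin whose nearest gene is one of these 9. They number 18 of 8815 listed regions, all 18 in the list of 8615 regions increased after PHF19 knockdown and none among the 200 decreased. The genes were chosen by name from loci that were already known to hold listed regions, so both their presence here and their direction were selected on the authors' fold change and false discovery rate (FDR), and both are given as a description, with no test.

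Open chromatin was assayed in Kasumi-1 cells by ATAC-seq, in which a transposase cuts accessible DNA and leaves sequencing adapters there. Kasumi-1, an established human line from acute myeloid leukaemia, has the RUNX1-RUNX1T1 fusion gene and is known for expressing CD34 and KIT. The knockdown group, shPHF19, has 3 libraries from cells given an shRNA against PHF19, and the Control group has 4 from cells given a scrambled shRNA (the labels' treatment field calls the latter WT). Cells of both groups had puromycin at 2 µg/ml from 48 hours after the shRNA, for at least 24 hours, with 10000 cells per library, and the labels name neither the number of shRNA sequences nor separate cultures. The files hold the authors' group means and no value for a single library, so no spread between libraries, no read depth and no marker check of the cells can be given, and no RNA or protein level was analysed here.

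PHF19 is a Polycomb-like protein that helps to bring the histone methyltransferase complex PRC2 to chromatin, where trimethylation of histone H3 lysine 27 marks repressed genes, and proteins of this family bind DNA rich in unmethylated CpG. Stem and progenitor surface molecules act as growth factor receptors (KIT), adhesion molecules (CD34, EMCN, CD44, ITGA6), an ectoenzyme (CD38) and immune receptors (CD96, HAVCR2). In acute myeloid leukaemia, CD34 with little CD38 is the classical stem cell phenotype, and CD44, CD96 and HAVCR2 have each been described on leukaemic stem cells.

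The starts of these genes differ widely in CpG content, which is shown because most of the 18 regions lie away from the starts. RefSeq promoter windows (GRCh38.p14, 250 bases before to 50 after a start) matched 7 of the 9 genes, in 8 windows. HAVCR2 and ANGPT1 have no entry used here. The 3 windows below run 5′ to 3′ on the gene's strand, with every CG dinucleotide in capitals. None of these 3 genes had a listed region annotated within 1 kb of its start.

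KIT, chr4:54657707-54658006, plus strand: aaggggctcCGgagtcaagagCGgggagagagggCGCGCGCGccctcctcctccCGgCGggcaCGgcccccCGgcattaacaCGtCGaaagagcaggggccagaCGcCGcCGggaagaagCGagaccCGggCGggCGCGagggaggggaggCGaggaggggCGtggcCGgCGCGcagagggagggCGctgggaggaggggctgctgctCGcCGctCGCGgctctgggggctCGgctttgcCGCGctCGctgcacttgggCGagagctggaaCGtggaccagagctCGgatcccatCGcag
CD38, chr4:15778078-15778377, plus strand: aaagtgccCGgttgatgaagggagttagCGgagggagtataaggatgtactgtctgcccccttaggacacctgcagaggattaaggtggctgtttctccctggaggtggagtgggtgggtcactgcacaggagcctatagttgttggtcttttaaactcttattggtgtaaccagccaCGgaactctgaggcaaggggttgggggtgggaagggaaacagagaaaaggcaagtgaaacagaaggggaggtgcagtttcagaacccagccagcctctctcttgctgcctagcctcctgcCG
CD96, chr3:111541947-111542246, plus strand: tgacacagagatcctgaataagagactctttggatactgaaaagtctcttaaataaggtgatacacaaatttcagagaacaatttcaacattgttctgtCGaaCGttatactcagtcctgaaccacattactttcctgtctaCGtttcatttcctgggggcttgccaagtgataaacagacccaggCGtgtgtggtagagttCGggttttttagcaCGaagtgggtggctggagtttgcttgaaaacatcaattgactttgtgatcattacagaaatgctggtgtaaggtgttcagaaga

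The KIT window held 38 CG dinucleotides, an observed to expected ratio of 0.952, the CD38 window 4 (0.195) and the CD96 window 6 (0.485). CD34 (0.666) and CD44 (0.626) lay between them, EMCN was lowest (0.149), and the 2 overlapping ITGA6 windows gave 0.522 and 1.01. The median over the 8 windows was 0.574, beside 0.737 over 22199 windows of 15843 protein-coding genes. Windows of genes with an increased promoter region had a median of 0.851, and those of genes with increased regions only away from the promoter 0.623. The RUNX core letters TGTGGT, read on both strands (ACCACA), occurred 2 times in the CD96 window and once in the stretch shared by the ITGA6 windows, and in none of the other 5 genes. They occurred in 11.3% of all protein-coding windows of this length. GATA letters (AGATAA) and ETS letters (CCGGAA) were counted in the same way. GATA letters occurred in none of the windows of these genes, beside 7.91% of all protein-coding windows. ETS letters occurred in 1 ITGA6 window alone, beside 21.2%. A letter match is no evidence of binding.

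**Figure D1:**
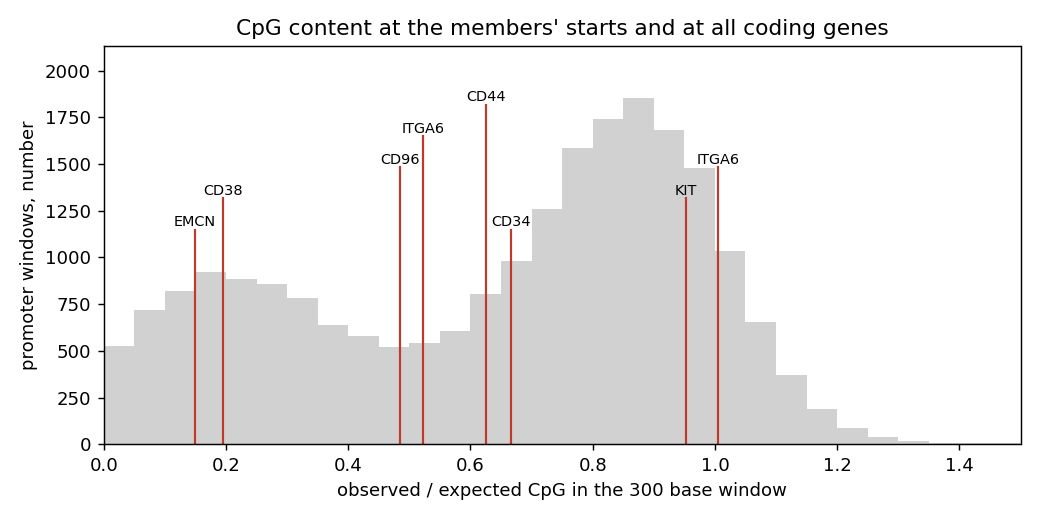
Observed to expected CpG ratio (x axis) of 300-base promoter windows, with the number of windows of all protein-coding genes on the y axis (grey bars) and a red line for each window of the 7 matched genes. EMCN (0.149) and CD38 (0.195) sit in the CpG-poor mode and KIT (0.952) in the CpG-rich one.

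Of 52675 regions the authors tested, 16.4% were in the increased list, where the largest FDR was 0.05 and the smallest log2 fold 0.59. Of 20037 protein-coding genes, 25.3% had at least 1 increased region, 17.6% had an increased promoter region and 0.818% had a decreased region. All 9 genes had an increased region and 0 had a decreased one. A promoter region, which the deposited annotation places within 3 kb of a start, was listed for 3 of the 9 (CD96, HAVCR2 and ANGPT1). Because genes with listed regions were picked, nothing is read from the 9 of 9. CD38 and CD44 had 3 regions each, EMCN and ITGA6 had 1, and the other 5 genes had 2. At least 2 regions were thus listed for 7 of the 9 and at least 3 for 2. Of the 5062 protein-coding genes with an increased region, 28.9% had at least 2 and 10.5% at least 3. For the same reason nothing is read from these counts.

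KIT, the receptor tyrosine kinase for stem cell factor, had the region with the most reads and the lowest fold of the set. DNA copy number was not analysed here. This region lies at chr4:55685120-55685520 (coordinates as deposited, read as hg19), 78.2 kb past the end of KIT. The authors' mean normalised read count was 194 in the knockdown and 111 in the control. No other increased region away from a promoter, of 4297, had as high a mean in either group, and the next, near TNRC6C, had 126 and 80.7 reads. In the authors' deposited table its log2 fold was 0.74 with an FDR of 0.000961, the lowest fold of the 18 and the 12.1th percentile among all increased regions. The deposited distance of 91.5 kb is measured from the start of a short transcript inside KIT, and from the outermost KIT start the region is 161 kb away.

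The other KIT region, chr4:55529352-55529752, lies in intron 1 of 20, 5.26 kb after the start. Its means were 35.1 reads in knockdown cells and 17.7 in control cells. Its log2 fold in the authors' deposited table was 0.84 (FDR 0.0171), so the 2 KIT regions had the 2 lowest folds of the set although their read levels differed several-fold.

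CD34, a sialomucin that marks haematopoietic progenitors, had 2 intergenic regions upstream and none in the gene. At chr1:208096924-208097324, 12.2 kb upstream of the annotated start, the means were 30.3 reads in knockdown cells and 12.6 in control cells. At chr1:208136832-208137232, 52.1 kb upstream, they were 39.1 and 16.8. The 2 regions, 39.5 kb apart, had the same log2 fold to 2 decimals in the authors' deposited table, 0.98, close to the median of 0.97 over all increased regions. Their FDRs were 0.00798 and 0.00432.

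EMCN, endomucin, a related sialomucin of endothelium and of stem cells, had a single region in intron 4 of 11 (chr4:101379833-101380233), 59.0 kb from the start. Its means were 11.6 reads in knockdown cells and 4.03 in control cells. Its log2 fold was 0.91 and its FDR 0.0474 in the authors' deposited table, the closest of the 18 to the FDR limit of 0.05. The next closest were an intronic CD38 region and a CD96 promoter region, both at 0.0374, and regions just outside the limit were not analysed here.

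CD38, an ectoenzyme that consumes NAD and is used as a differentiation marker beside CD34, had 3 regions. A pair 1.62 kb apart lay upstream, between CD38 and BST1, the gene of a related ectoenzyme. The farther one (chr4:15755930-15756330, 23.6 kb upstream) had 19.8 reads in knockdown cells and 5.48 in control cells. The nearer one (chr4:15757952-15758352, 21.6 kb) was more open in both groups, with 39.9 and 16.4 reads. Their log2 folds were 1.31 (FDR 0.00174) and 1.05 (FDR 0.00206) in the authors' deposited table, and the former was the second highest of the set, at the 91.3th percentile of all increased regions. The region in intron 3 of 7 (chr4:15834361-15834761) had 14.3 and 5.58 reads, with a log2 fold of 0.91 (FDR 0.0374) in the authors' deposited table. CD38 thus had the widest range of folds within 1 gene, 0.40 on the log2 scale.

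CD44, the hyaluronan receptor through which leukaemic cells lodge in the marrow, also had 3 regions. An upstream pair lay 10.0 kb apart. At chr11:35061713-35062113, 98.3 kb upstream, the means were 29.7 reads in knockdown cells and 10.4 in control cells. At chr11:35072108-35072508, 87.9 kb upstream, they were 24.2 and 9.99. The control levels were thus close, while the log2 folds in the authors' deposited table were 1.21 and 0.96. Their FDRs were 0.000921, the lowest of the 18, and 0.0136. The third region, in intron 1 of 8 (chr11:35165711-35166111, 5.29 kb after the start), had 21.2 and 6.94 reads, a log2 fold of 1.19 and an FDR of 0.00337 in the authors' deposited table. A region assigned to MIR1343 lay 3.88 kb from the farther upstream region and was increased as well (log2 fold 1.03 in the authors' deposited table).

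ITGA6, the integrin alpha 6 subunit that forms laminin receptors, had 1 region, 146 kb upstream of the start, the largest deposited distance to a nearest start among the 18 (chr2:173145493-173146116). It was also the only one of the 18 that was not 401 bp wide (624 bp). Its means were 31.1 reads in knockdown cells and 14.9 in control cells, with a log2 fold of 0.86 and an FDR of 0.0152 in the authors' deposited table. The nearest other listed region, 27.2 kb away, is assigned to DLX2. The link to ITGA6 rests on the nearest start alone, as does that of every other intergenic region here to its gene.

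CD96, an immunoglobulin-family receptor of lymphocytes that binds the poliovirus receptor, had a region on each side of its start, 7.58 kb apart. Upstream, 1.97 kb from the start (chr3:111258555-111258955), the means were 17.1 reads in knockdown cells and 7.26 in control cells. In intron 2 of 7 (chr3:111266538-111266938, 5.61 kb after the start) they were 13.6 and 4.20. The log2 folds were 0.87 (FDR 0.0374) and 1.08 (FDR 0.0155) in the authors' deposited table, so the less open region had the larger fold.

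HAVCR2, the inhibitory receptor TIM-3, was the gene whose regions all lay at the promoter, and it held the region that covers a transcription start. That region (chr5:156535978-156536378) had 13.1 reads in knockdown cells and 3.79 in control cells, with a log2 fold of 1.09 and an FDR of 0.0168 in the authors' deposited table. The other, 2.01 kb into the gene (chr5:156533839-156534239), had 9.65 reads in the knockdown, and its control mean stood at the files' floor of 1 read. From the overall mean, the control mean before flooring was 0.881 reads. Its log2 fold of 1.39 (FDR 0.0035) in the authors' deposited table was the highest of the set, at the 94.3th percentile of all increased regions, but on the fewest reads, 4.64 over all libraries. Both regions therefore describe a promoter with few reads in the control and still few in the knockdown.

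ANGPT1, the secreted ligand angiopoietin-1 of the receptor TEK, had a region 1.80 kb after its outermost start (chr8:108508056-108508456) and one in intron 6 of 7 (chr8:108290907-108291307). The first had 9.98 reads in knockdown cells and 2.87 in control cells, and the intronic one 13.5 and 3.92. The log2 folds were 0.99 (FDR 0.0349) and 1.13 (FDR 0.0118) in the authors' deposited table. The regions lie 217 kb apart, the intronic one 219 kb from the outermost start and 43.0 kb from that of a shorter transcript. Their ratios of group means, 3.47 and 3.45, were alike.

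**Figure D2:**
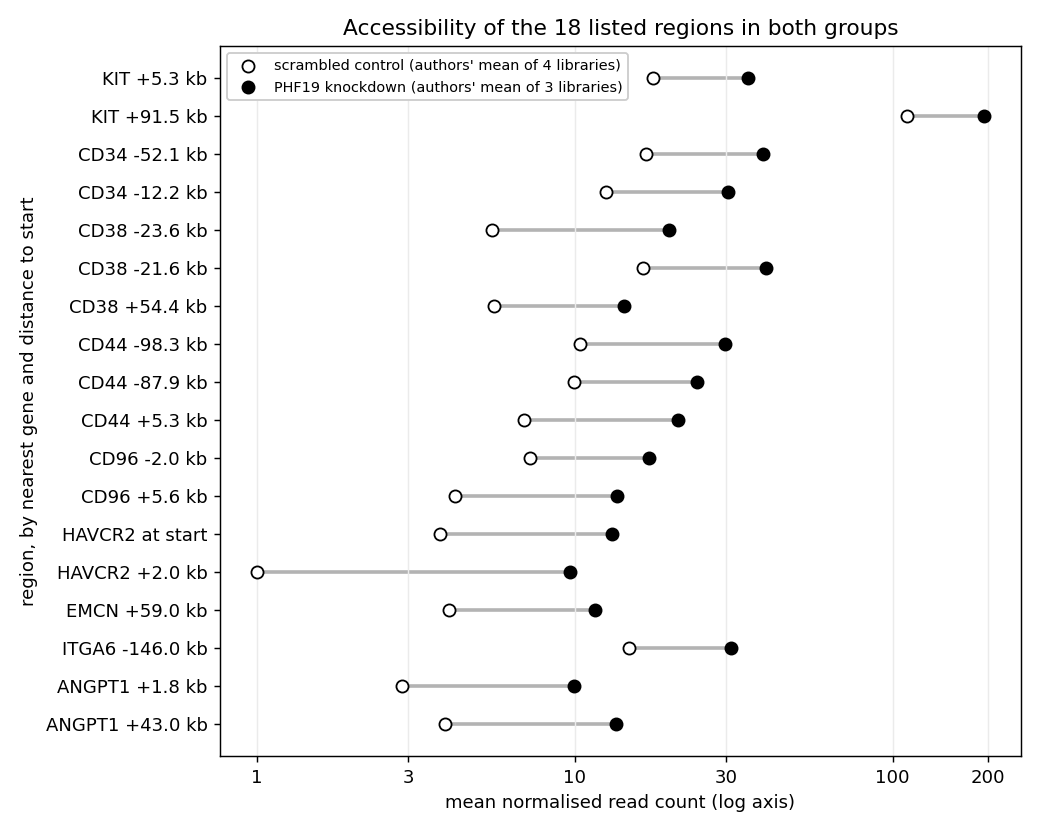
Authors' mean normalised read count (x axis, log scale) of each of the 18 regions (y axis, by nearest gene and distance to its start), open points for the control and filled points for the knockdown, with a line joining the 2 means and no error since the files give none. The KIT region at 91.5 kb stands apart at 111 and 194 reads, and the HAVCR2 region at 2.0 kb starts at the floor of 1 read.

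Side by side, the 18 regions covered a narrow range of deposited folds and a wide range of read levels. In the authors' deposited table the log2 folds ran from 0.74 to 1.39 with a median of 0.98, beside 0.97 over all 8615 increased regions. The difference of the 2 log2 group means ran more widely, from 0.81 to 3.27, the highest at the HAVCR2 region with its control mean at the floor. A deposited log2 fold of at least 1 was reached by 8 of the 18 (44.4%), beside 43.4% of all increased regions, and an FDR of at most 0.01 by 8 (44.4%), beside 45.9%. These shares stood near those of the whole list. The control means ran from 1 to 111 reads with a median of 7.10, beside 11.2 for all increased regions, and the knockdown means had medians of 20.5 and 27.5. The mean over all libraries was under 10 reads in 7 of the 18 (HAVCR2 2, ANGPT1 2, CD38 1, CD96 1 and EMCN 1), 38.9% beside 26.9%.

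**Figure D3:**
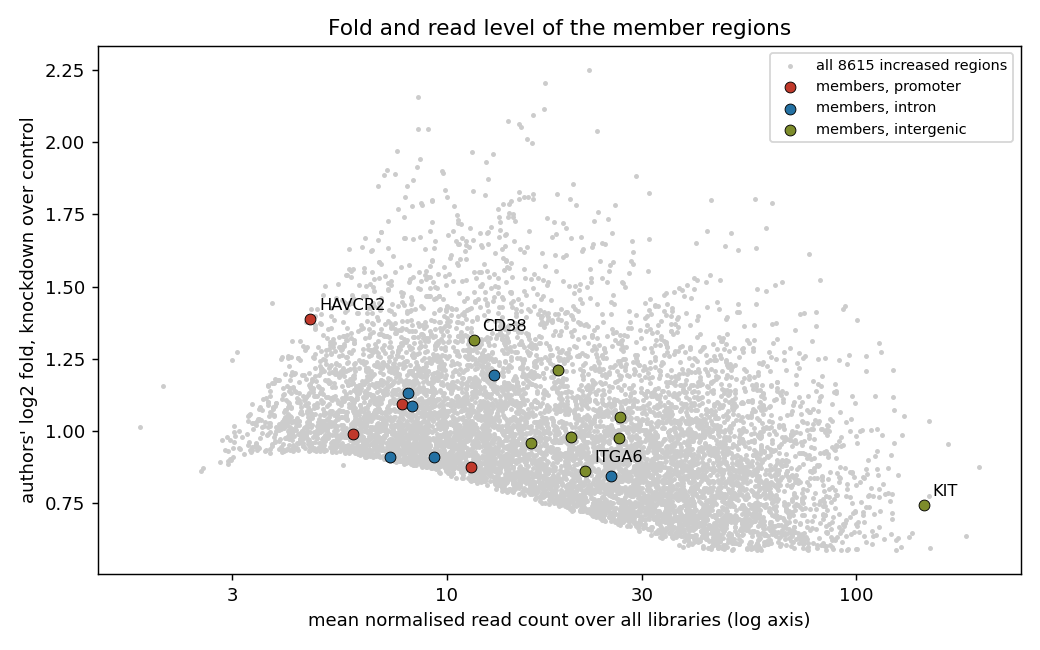
Authors' log2 fold, knockdown over control (y axis), against the mean normalised read count over all libraries (x axis, log scale), with all 8615 increased regions in grey and the 18 regions coloured by annotation. The lower edge of the grey cloud rises toward low reads, where only larger folds are listed, and KIT and HAVCR2 mark the ends of the set at 146 and 4.64 reads.

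All increased regions had passed the authors' FDR limit, and those with few reads were listed only at larger folds. The smallest absolute log2 fold listed was 0.59, and whether the authors also set a fold limit is not given here. The part of such limits in a link between reads and folds was not tested. Over the 18 regions the log2 fold fell with the log2 mean read count (Pearson r = −0.54, Spearman rho = −0.43), and over all 8615 increased regions likewise (−0.39 and −0.46). These are descriptions across regions of the same pooled libraries. The difference of the 2 log2 group means was larger than the deposited fold in all 18, by 1.09 times at the KIT region with most reads and by 2.36 times at the HAVCR2 region, where the control mean stands at the floor. The method behind the deposited folds is not given here.

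Most of the regions lay away from starts, and no test was made of the difference from the whole list. Intergenic regions made up 8 of the 18 (44.4%, beside 26.8% of all increased regions), introns 6 (33.3%, beside 20.5%) and promoters 4 (22.2%, beside 50.1%). One region covered a start (5.56%, beside 34.6%), and the median distance was 22.6 kb, beside 2.90 kb. Within their class the 8 intergenic regions were well read, with a median mean over all libraries of 21.0 reads beside 10.4 for all increased intergenic regions, and none was under 10 reads, beside 47.8%. The 4 promoter regions were poorly read, with a median of 6.85 reads beside 33.8 for all increased promoter regions. They also lay farther out, at a median of 1.88 kb from a start beside 0 for the class. Of the 4, 1 (25%) covered a start, beside 69.1%, so regions at unlike positions are compared here. The farther CD38 region, with 11.6 reads, lay close to the intergenic median. FDRs of 0.01 or less were found at 6 of the 8 intergenic regions (75%, beside 38.7% of the class) and at 1 of the 4 promoter regions (25%, beside 54.4%). The median log2 fold of the intergenic regions was 0.98, beside 1.03 for the class, and that of the promoter regions 1.04, beside 0.89.

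**Figure D4:**
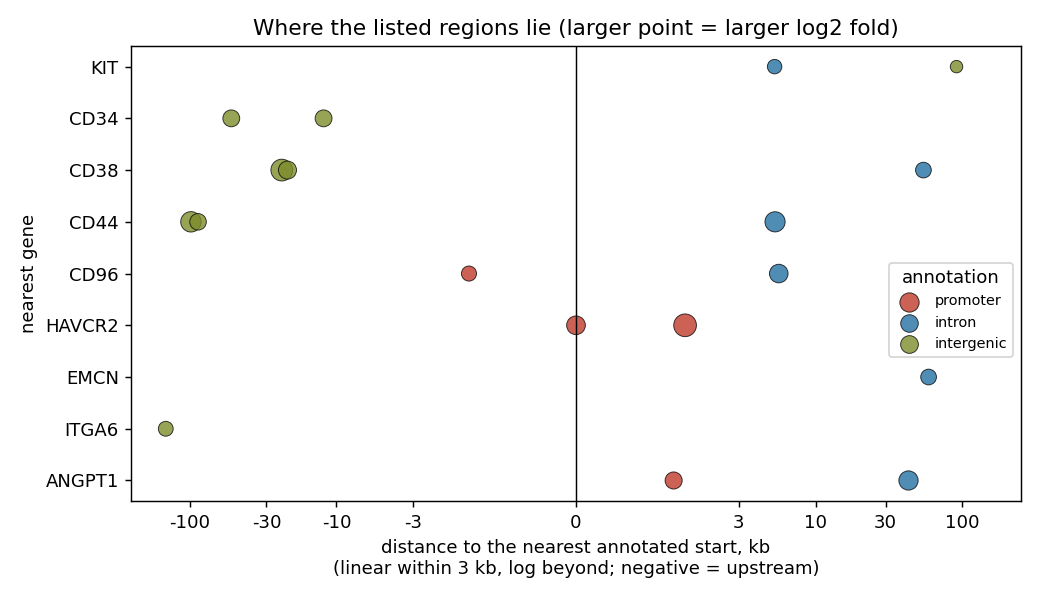
Distance of each region from the nearest annotated start (x axis, kb, linear within 3 kb and logarithmic beyond, negative upstream) by nearest gene (y axis), coloured by annotation, with larger points for larger log2 folds. CD34, CD38, CD44 and ITGA6 have intergenic regions upstream, whereas HAVCR2 has both of its regions at the promoter.

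The genes lie mostly on chromosomes where increased regions were common. KIT, CD38 and EMCN are on chromosome 4, whose protein-coding genes had an increased region in 38.2% of cases. HAVCR2 is on chromosome 5 (44.4%), CD96 on chromosome 3 (39.2%), ITGA6 on chromosome 2 (33.8%), ANGPT1 on chromosome 8 (30.5%), CD44 on chromosome 11 (25.8%) and CD34 on chromosome 1 (18.7%). So 7 of the 9 lie on chromosomes above the 25.3% of all protein-coding genes by at least 5 percentage points, and CD34 alone lies on one below it. Genes with listed regions were picked, which favours chromosomes with many of them. The share of all protein-coding genes on such chromosomes is not given here, so nothing is read from the 7 of 9. The part of chromosome-wide differences in the 18 regions was not tested.

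The partners, relatives and signalling genes of these molecules had listed regions to different extents. Of 23 genes for ligands and binding partners, 3 (13.0%) had an increased region and 0 a decreased one. KITLG, which encodes stem cell factor, the KIT ligand, had 2 regions, the larger of them 84.2 kb from its start with 19.6 reads in knockdown cells and 5.40 in control cells (log2 fold 1.30, FDR 0.00229, authors' deposited table). HMGB1, a HAVCR2 ligand, had 2 (largest 0.97), and SELP, an adhesion receptor for mucin-type ligands, had 1 (0.79). TEK, the ANGPT1 receptor, and ITGB1 and ITGB4, the beta partners of ITGA6, were absent from both lists, and whether they changed is unknown here.

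Of 24 family relatives, 11 (45.8%) had an increased region and 0 a decreased one. The integrin subunit ITGA4 had 4, the largest at its start with 24.6 reads in knockdown cells and 5.59 in control cells (log2 fold 1.60 in the authors' deposited table). Podocalyxin, PODXL, a sialomucin of the CD34 family, had 2 (largest 1.33, at the promoter), and the integrin subunit ITGAV had 2 (largest 1.32). BST1, the CD38 relative next to it, had a promoter region with 21.8 and 7.87 reads (1.09), and ITGA5 an exonic region (1.06). The region listed for PDGFRA, a receptor kinase related to KIT, lies at the start of an annotated transcript of 921 kb, whereas the RefSeq gene spans 69.0 kb, so it is not taken as a PDGFRA promoter, and without it the count is 10.

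Of 24 further stem and progenitor surface markers, 5 (20.8%) had an increased region and 0 a decreased one. These 5 held 16 regions, with a median log2 fold of 1.22 in the authors' deposited table, beside 0.97 over all increased regions. Most of the 16 belonged to IL1RAP and CD200, both on chromosome 3, whose share of 39.2% is given above. IL1RAP, a coreceptor of interleukin-1 found on leukaemic stem cells, had 7 (largest 1.69, intronic, with 17.6 reads in knockdown cells and 2.74 in control cells), and the immune inhibitory ligand CD200 had 5 (largest 1.62). MMRN1, a secreted multimerin used in stem cell signatures (1.43), the chemokine receptor CXCR4 (1.29, 264 kb from its start) and the scavenger receptor CD36 (1.23) made up the rest. The other 19, among them PROM1, THY1, CD33, IL3RA, CLEC12A and CD47, had no listed region.

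Of 22 KIT signalling genes, 11 (50.0%) had an increased region and 0 a decreased one, and 10 had an increased promoter region (17.6% of all protein-coding genes had one). Among the larger folds in the authors' deposited table were those at PIK3R1, the regulatory subunit of phosphoinositide 3-kinase (1.57, promoter), the ubiquitin ligase CBLB (1.27, intergenic), the adaptor GAB2 (1.16, intronic) and PIK3CA, the catalytic kinase subunit (1.10, promoter). These lists were read against the 25.3% of all protein-coding genes and got no test of their own.

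**Figure D5:**
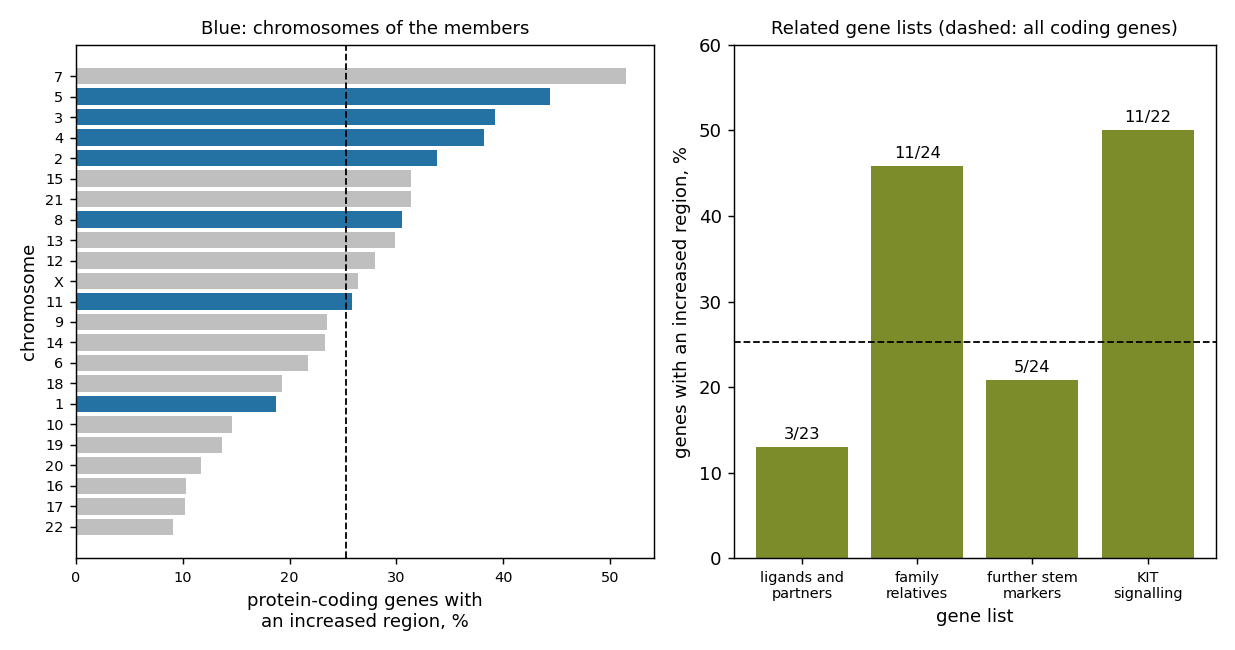
Left, share of protein-coding genes with an increased region (x axis, %) by chromosome (y axis), blue where at least 1 of the 9 genes lies. Right, the same share (y axis, %) for the 4 related gene lists (x axis), with counts above the bars and a dashed line at the 25.3% of all protein-coding genes in both panels, where KIT signalling reaches 50.0% and ligands and partners 13.0%.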

How the data were processed

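ATAC-seq regions of 3 shPHF19 and 4 Control libraries were read from the authors' lists of increased and decreased regions. Per the file headers, each has log2 mean normalised read counts over all libraries and per group, a log2 fold, a p-value and an FDR, all made by the authors before deposit. Per the submitters' processing notes, MACS2 2.2.6, Bowtie2 2.4.1, deepTools 1.5.12 and Picard 2.2.4 were used. Their roles, the normalisation, the transposase shift and the differential test are not given here, and how many regions appear increased or decreased can depend on the normalisation. The column named KP was read as the knockdown and KC as the control, because KP is higher throughout the increased list and, in all 8678 regions with both means above the floor, the overall mean weights them as 3 and 4 libraries (within 0.001).

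The notes name hg38, but 0.091% of deposited gene starts equal those of GRCh38 and regions on 13 chromosomes lie beyond its last gene, so coordinates are read as hg19. The 52675 tested regions were recovered as the number that makes p × number / FDR a whole rank (within 0.01) in 52.8% of regions, against 3.14% for the next best number tried. This step was checked on simulated data. Symbols were matched by gene identifier to a RefSeq table (GRCh38.p14, 8789 of 8815 regions).

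Members and lists were chosen with earlier results of these data known. Every member and region is named, and from each list the up to 5 genes with the largest fold, as well as any with a decreased region, except 1 gene that is not reported here. No test was run, since all values come from the contrast that chose the regions. Alternatives were a fold, FDR, distance, annotation or read minimum and the difference of group means. Python 3.11.15, pandas 2.3.3, numpy 2.4.6 and matplotlib 3.10.9 were used.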

Additional observations from a re-analysis of the deposited data

How the results depend on the processing

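All 9 genes had an increased region as deposited. The number was 5 with absolute log2 folds of 1 or more (ANGPT1, CD38, CD44, CD96 and HAVCR2, beside 11.3% of all protein-coding genes), 5 at an FDR of at most 0.01 (CD34, CD38, CD44, HAVCR2 and KIT, beside 13.9%) and 3 with promoter regions alone (beside 17.6%). It was 8 within 100 kb of a start (beside 23.7%) and 6 with a mean of at least 10 reads (beside 21.7%). The 18 regions became 8 at that fold, 8 at that FDR, 11 with at least 10 reads and 17 within 100 kb. CD38, CD44 and HAVCR2 met both the fold and the FDR limit. The median log2 fold, 0.98, was 1.43 as the difference of the group means (1.31 over all increased regions) and 0.98 without the region at the floor. That difference exceeded the deposited fold in 18 of 18 regions, by over 1.5 times in 6. For the 93 genes of the 4 lists, alternatives chosen after seeing the data gave 19 genes at that fold (beside 11.3% of all protein-coding genes) and 19 at that FDR (beside 13.9%), against 30 as deposited (beside 25.3%), and 23, 27 and 29 for promoters, read minimum and distance (beside 17.6, 21.7 and 23.7%). No paired analysis was possible because the files hold no value per library, and for the same reason no replicate could be left out. Read depth is unknown, and the regions of HAVCR2, ANGPT1 and EMCN rest on the fewest reads.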

Other observations

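The surroundings of the 9 genes also held listed regions. Of the 18 protein-coding genes that are next to them in RefSeq order, 9 had an increased region, or 8 without the uncertain PDGFRA region (25.3% of all protein-coding genes had one, and 18.7 to 44.4% on the 7 chromosomes involved), and PDHX, beside CD44, had a decreased region as well as an increased one. BST1, MED7, beside HAVCR2, and PDK1, beside ITGA6, had their largest increase at the promoter (log2 folds 1.09, 0.93 and 0.88 in the authors' deposited table), and RSPO2, beside ANGPT1, in an intron (1.02). DDIT4L, beside EMCN (0.87), DLX2, beside ITGA6 (0.81), and ZBED2, beside CD96 (0.97), had theirs at intergenic or intronic sites. The 2 neighbours of CD34, CD46 and PLXNA2, had none. HAVCR1, a relative of HAVCR2 next to it, had none either.

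The loci differed in how many other listed regions lay nearby. Within 100 kb of each KIT region, among them the one with 194 reads in the knockdown, no other listed region was found. The same held for each ANGPT1 region and the EMCN region. Open regions that were not listed cannot be seen here, and such counts for increased regions in general are not given. The CD38 and CD44 regions had between 1 and 4 others within 100 kb, and each HAVCR2 region had 2. Within 500 kb, the HAVCR2 start and the intronic CD38 region had 10 each.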
